A study of Sus scrofa with 8 samples.

Results

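The insulin-like growth factor (IGF) family of this pig study was taken as 8 named genes: the ligands IGF1 and IGF2, the receptors IGF1R and IGF2R, and the binding proteins IGFBP2, IGFBP3, IGFBP4 and IGFBP5. They were looked up by symbol among the 21301 genes of each deposited matrix, and 6 of the 8 were found. IGF2 and IGFBP3 are not analysed here. The rule that chose them uses names alone, but the family was picked with earlier results of these data known.

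Single-cell RNA sequencing was done on 8 libraries, each made from a pool of 5 embryos of the same sow and read with a 10x 3′ kit. Tibetan embryos (ZZ) and Duroc × Tibetan embryos (DZ) were each sampled as somites at embryonic day (E) 16, E18 and E21 and as myotome at E28, with 1 library per stage and breed. E16 and E18 are called early here and E21 and E28 late. The stages thus differed in tissue as well as in age at E28, and the breeds are a pure and a crossed pool, so the effect of a stage cannot be told apart from that of its tissue, its sow or its counting software (Cell Ranger 3.1.0 at E16 and 3.0.2 at the later stages). With the sow shared inside each pool, p-values measure spread over these 8 libraries alone. For late against early it is the spread between libraries. For the breeds it is how their difference varied between stages, and for cell types how type differences varied between libraries.

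IGF1 and IGF2 are secreted growth factors. Both act through IGF1R, a receptor tyrosine kinase that signals through phosphatidylinositol 3-kinase and AKT, while IGF2R, also the mannose 6-phosphate receptor, binds IGF2 and carries it to lysosomes without a kinase of its own. The IGFBPs hold the ligands outside the cell, prolonging their life or keeping them from the receptor, and in muscle the family is known for driving both myoblast growth and differentiation.

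After filtering, 82394 of 90688 barcodes were kept, 6297 to 12173 per library, with 47651997 to 66696834 unique molecular identifiers (UMIs, each a counted transcript molecule) per library. E16-ZZ stood apart: 39.2% of its barcodes were over the mitochondrial limit, against 1.05 to 9.15% in the others, and the fibroblast genes LUM and DCN were at 154 and 129 CPM there against 18.5 and 15.2 in E16-DZ, where CPM is the UMIs of a gene scaled to a common total per library or sum. Of the myogenic markers, MYOD1 was at 0.0839 to 0.151 CPM in the early libraries and at 61.2 and 86.6 at E28, and the somite gene MEOX1 was detected in every library at 14.9 to 51.9. Gates on marker genes put 30487 cells into 1 of 16 cell types, 2201 cells into several and 49706 into none. No doublet caller was run, and 1001 of 89679 distinct barcodes occurred in more than 1 library.

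Of the 6 genes, IGF1 and IGFBP5 were higher in the late libraries, and the receptors, IGFBP2 and IGFBP4 did not pass the test. Levels are in CPM over the cells kept, which is not per length, so they were compared between libraries and not between genes.

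IGF1 was at 2.46 (E16-ZZ), 3.55 (E16-DZ), 2.67 (E18-ZZ), 2.65 (E18-DZ), 9.43 (E21-ZZ), 12.4 (E21-DZ), 30.0 (E28-ZZ) and 12.4 (E28-DZ) CPM. Every late library lay above every early one, and E28-ZZ lay far above the other late libraries. The mean rose from 2.83 ± 0.491 (SD, n = 4) to 16.1 ± 9.42 (SD, n = 4), a log2 fold change of 2.30 (SE 0.41, edgeR adjusted p = 0.00622). Without the E16 libraries the log2 fold change was 2.47 and the adjusted p = 0.0514, which ended the call. Over 16 alternatives the log2 fold change ran from 1.72 to 3.33, and 15 kept the call.

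IGFBP5, a binding protein abundant in bone, connective tissue and muscle, was at 64.8 (E16-ZZ), 102 (E16-DZ), 69.3 (E18-ZZ), 90.2 (E18-DZ), 269 (E21-ZZ), 347 (E21-DZ), 510 (E28-ZZ) and 636 (E28-DZ) CPM. The early and late groups did not overlap, and the E28 pair was the highest. Its mean rose from 81.5 ± 17.5 (SD, n = 4) to 441 ± 165 (SD, n = 4), with a log2 fold change of 2.26 (SE 0.26, edgeR adjusted p = 0.00211).

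The receptors moved little. IGF1R ranged from 15.6 (E28-DZ) to 23.5 (E21-DZ) CPM over the 8 libraries, with a late over early log2 fold change of -0.13 (SE 0.17, edgeR adjusted p = 0.568). IGF2R ranged from 14.8 (E16-ZZ) to 19.8 (E28-ZZ), with a log2 fold change of -0.03 (SE 0.13, edgeR adjusted p = 0.873). In both receptors the early and late ranges overlapped. Mean CPM was higher late, unlike the sign of the scaled fit, at 18.7 early and 19.2 late for IGF1R. For IGF2R it was 16.8 early and 18.6 late.

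IGFBP2, a binding protein abundant in fetal tissues, ranged from 727 (E16-ZZ) to 941 (E21-ZZ) CPM with a log2 fold change of 0.00 (SE 0.10, edgeR adjusted p = 0.991). IGFBP4, which in most settings restrains IGF action until the protease PAPPA cleaves it, was at 11.6 to 16.2 early, 13.4 and 16.9 at E21, and 27.4 and 35.5 at E28. The E28 pair stood well above the early range and E21-DZ just above it, and the late over early log2 fold change was 0.55 (SE 0.30, edgeR adjusted p = 0.191), or -0.08 without E28. With a mitochondrial limit of 5% IGFBP4 passed, at 1.13 (edgeR adjusted p = 0.0310).

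Thus 2 of 6 genes passed an adjusted p under 0.05, both higher, where 35.1% of the 14849 genes tested passed in either direction and 17.7% passed as higher. The median log2 fold change was 0.27 over the 6 genes and 0.03 over all genes. In whole libraries, fewer cells of a type and less RNA per cell cannot be told apart.

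**Figure D1:**
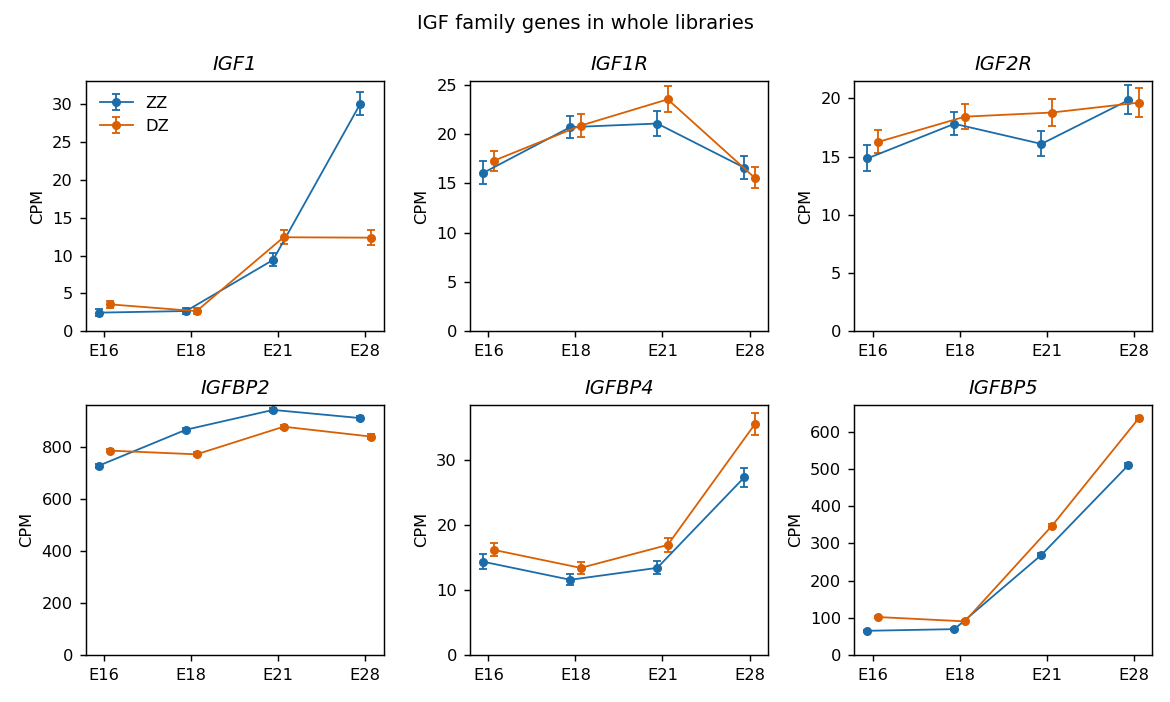
Level of each IGF family gene (y axis, CPM, from 0) by stage (x axis) in whole ZZ (blue) and DZ (orange) libraries; each point is 1 library and the bars are 95% counting intervals. IGF1 and IGFBP5 lie higher at E21 and E28 than before, while IGF1R, IGF2R and IGFBP2 stay within narrow ranges.

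Between breeds, none of the 6 genes passed in whole libraries when DZ was set against ZZ with the stage as a block (edgeR), and 0.00654% of the 15295 genes tested, 1 gene, did. At an unadjusted p under 0.05 there were 2 of the 6, where 6.15% of all genes were, and DESeq2 called 0. IGFBP5 was higher in DZ at 4 of 4 stages, with DZ over ZZ ratios of 1.57 at E16, 1.30 at E18, 1.29 at E21 and 1.25 at E28 and a log2 fold change of 0.41 (SE 0.09, edgeR adjusted p = 0.671). IGFBP4 was also higher in DZ at 4 of 4 stages, with ratios of 1.13, 1.16, 1.26 and 1.30 in the same order and a log2 fold change of 0.26 (SE 0.10, edgeR adjusted p = 0.799). IGF1 had no common direction, with ratios of 1.45, 0.994, 1.32 and 0.412. IGFBP2 was higher in DZ at 1 of 4 stages.

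The family was then compared between cell types. To do so, UMIs were summed per type and library where at least 20 cells were present, which gave 94 sums, and each type was set against the mean of the other 15 in 1 fit that held a term for each library. Of the 96 gene and type pairs 37 passed, where 26.2% of all such pairs over 12268 genes did. Types present only early (cardiac muscle, lateral plate) or only late (tendon, macrophage) were compared through the libraries they shared with others. Erythroid cells, at a median of 6665 UMIs per cell, serve below as a level for comparison. Their UMIs were 30.4 to 52.4% globin, which lowers the CPM of their other genes. Free RNA was not estimated, so the erythroid level is not a measure of it. Endothelial cells had the most members past the test, 5 of 6 (43.5% of all genes), before myocytes with 4 (39.6%), macrophages with 4 (23.6%) and epithelial cells with 4 (22.1%). Fibroblasts had 3 (23.2%), neural crest or glia 3 (23.5%), neural progenitors 3 (36.7%) and erythroid cells 3 (45.3%), while MYF5+ cells had 2 (23%) and neurons 2 (55.4%). Cardiac muscle (18.3%), sclerotome (13.4%), tendon (6.86%) and lateral plate (15.2%) had 1 each, and PAX3+ progenitors (11.2%) and chondrogenic cells (19%) had 0.

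In the fit over all libraries endothelial cells came first for IGF1, with a log2 fold change to the other types of 3.87 (SE 0.37, edgeR adjusted p = 4.42e-15). Their level was 19.4 and 25.9 CPM at E16, 31.2 and 37.9 at E18, 18.2 and 9.19 at E21, then 27.8 and 8.68 at E28, ZZ first, so that every endothelial sum lay above every erythroid sum (0 to 1.62). Macrophages, which had 22 IGF1 UMIs in 3 libraries, were next at 3.65 (SE 0.92, edgeR adjusted p = 0.00141), and tendon cells followed at 2.97 (SE 0.64, edgeR adjusted p = 0.000715), a call that ended without E28-ZZ (adjusted p = 0.157) and with DESeq2 (adjusted p = 0.0925). Fibroblasts were at 2.67 (SE 0.41, edgeR adjusted p = 2.47e-07). Endothelial cells and macrophages did not differ past the test (0.21, edgeR adjusted p = 0.905), and by mean CPM over their own libraries macrophages (49.7) and tendon cells (30.4) lay above endothelial cells (22.3). In the late libraries alone the endothelial mean (16.0) was also below that of fibroblasts (35.0) and PAX3+ progenitors (27.5).

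No type was called lower in IGF1 (edgeR), at an unadjusted p under 0.05 either. Cardiac muscle cells, with 0 IGF1 UMIs in 4 libraries, which allows up to 1.29 CPM over all of them, were at -4.91 (SE 3.64, edgeR adjusted p = 0.406), and for most other types with a value below 0 the fit gave a p near 1 and no usable SE. With cells of several gates kept, edgeR called IGF1 lower in neurons (-1.51, adjusted p = 0.0374) and in neural crest or glia (-1.90, adjusted p = 0.0208). DESeq2 called IGF1 lower in neural crest or glia (-2.11, DESeq2 adjusted p = 0.0154) and in epithelial cells (-2.89, DESeq2 adjusted p = 0.0360), which had 2 UMIs. Neural crest or glia cells had 11 IGF1 UMIs in 8 libraries and neural progenitors 13 in 6, at 0 to 2.56 and 0 to 3.42 CPM, close to the erythroid range. No neighbouring pair of the 15 in the order of IGF1 levels differed past the test. Neighbours in such an order are the closest values of the same fit, so few calls are to be awaited.

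IGF1R was higher in endothelial cells at 0.78 (SE 0.12, edgeR adjusted p = 1.30e-07), in myocytes at 0.62 (SE 0.15, edgeR adjusted p = 0.000428) and in epithelial cells at 0.59 (SE 0.16, edgeR adjusted p = 0.00385), on the log2 scale. By mean CPM myocytes (23.5) were no higher than MYF5+ cells (24.4) or PAX3+ progenitors (23.7), neither of which was called. The epithelial call ended without E21-ZZ (adjusted p = 0.138), with at least 50 cells per sum (adjusted p = 0.123) and with a mitochondrial limit of 5% (adjusted p = 0.391). Neural crest or glia cells were lower at -0.54 (SE 0.15, edgeR adjusted p = 0.00588), and macrophages, with 2 IGF1R UMIs, at -2.11 (SE 0.65, edgeR adjusted p = 0.0354), where DESeq2 gave an adjusted p = 0.214. The receptor was detected in every sum of the other 15 types, at 2.68 to 9.59 CPM in erythroid cells and 6.08 to 45.8 in the rest.

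IGF2R varied least. It was higher in myocytes at 0.67 (SE 0.18, edgeR adjusted p = 0.00160) and lower in neurons at -0.51 (SE 0.22, edgeR adjusted p = 0.0439), but not without E21-ZZ (adjusted p = 0.228) or E21-DZ (adjusted p = 0.110), nor with DESeq2 (adjusted p = 0.0528), a mitochondrial limit of 5% (adjusted p = 0.139), at most 15000 UMIs per cell (adjusted p = 0.0641) or no library block (adjusted p = 0.111). Its type effects spanned 1.18 on the log2 scale, where the median over all genes was 2.65 and 16.1% of genes spanned less. In CPM erythroid IGF2R was lower, with a mean of 5.74 (0 to 10.5) against means of 14.7 to 28.6 in the other types. The scaled fit put erythroid cells at -0.16 (SE 0.25, edgeR adjusted p = 0.721). Neither receptor had a neighbouring pair of types that differed past the test.

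IGFBP2 was spread over most types and scarce in blood cells. It was higher in epithelial cells at 0.92 (SE 0.22), MYF5+ progenitors or myoblasts at 0.90 (SE 0.20), endothelial cells at 0.87 (SE 0.18), neural crest or glia at 0.85 (SE 0.18) and neural progenitors at 0.77 (SE 0.20). The MYF5+ call ended without E28-ZZ (adjusted p = 0.0641) and the neural progenitor call without E21-ZZ (adjusted p = 0.0894), while the endothelial value fell to 0.51 without E28-ZZ and 0.54 without E28-DZ and was still called. With a mitochondrial limit of 5% the endothelial (adjusted p = 0.167) and neural crest or glia (adjusted p = 0.164) calls ended. It was lower in erythroid cells at -1.84 (SE 0.25, edgeR adjusted p = 1.10e-09) and in macrophages at -3.64 (SE 0.54, edgeR adjusted p = 5.23e-08). With cells of several gates kept, the macrophage value was -2.38 (edgeR adjusted p = 2.38e-06). Erythroid sums held 29.4 to 128 CPM and macrophage sums 51.3 to 68.8, below every sum of the other 14 types (176 to 1628). The order had 2 steps past the test, from lateral plate down to erythroid cells (1.41, edgeR adjusted p = 0.000193) and from those to macrophages (1.69, edgeR adjusted p = 0.0316). Tested over all genes, the pairs of types that were neighbours for some member passed in 27.2% of cases. Those types need not be neighbours for other genes, so that share is not a like background. The second step is one of the TMM-scaled fit and is not seen in CPM, where the macrophage mean (60.0) was not below that of late erythroid cells (54.1). What the globin share of the erythroid sums does to their scaling was not tested.

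IGFBP4 was highest in endothelial cells. Endothelial sums held 75.5, 87.4, 60.9, 94.8, 82.5, 145, 82.4 and 96.7 CPM from E16-ZZ to E28-DZ, and no sum of another type reached 60.9, the highest being a fibroblast sum at 51.2. The log2 fold change was 3.63 (SE 0.15, edgeR adjusted p = 2.00e-37), and the step from endothelial to cardiac muscle cells, next in order, was 2.01 (edgeR adjusted p = 4.79e-06).

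Cardiac muscle (1.48), fibroblasts (1.22), sclerotome (1.08) and lateral plate (0.79) were also higher in IGFBP4, but the lateral plate call ended without E18-ZZ (adjusted p = 0.195) or E18-DZ (adjusted p = 0.102), with 1 marker more in the gate (adjusted p = 0.416) and with a mitochondrial limit of 5% (adjusted p = 0.124). That limit also ended the cardiac call (adjusted p = 0.191). Epithelial cells (-2.05), neural progenitors (-1.89), erythroid cells (-1.87), neurons (-1.85), myocytes (-1.27) and MYF5+ cells (-0.90) were lower, all 6 on the log2 scale, the erythroid call ending when cells of several gates were kept (adjusted p = 0.380) and the MYF5+ call with a mitochondrial limit of 5% (adjusted p = 0.0945). Without the library block the MYF5+ (adjusted p = 0.0844), cardiac (adjusted p = 0.0549) and lateral plate (adjusted p = 0.376) calls ended. IGFBP4 was thus called in 11 of 16 types, more than in 97.2% of the genes tested. A step from neural crest or glia down to PAX3+ progenitors also passed (1.08, edgeR adjusted p = 0.0356).

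IGFBP5 was higher in epithelial cells at 2.10 (SE 0.36), in neural crest or glia at 2.07 (SE 0.27), in myocytes at 1.74 (SE 0.34) and in fibroblasts at 1.37 (SE 0.31). It was lower in macrophages at -2.89 (SE 1.00), endothelial cells at -1.97 (SE 0.40), neural progenitors at -1.35 (SE 0.44) and erythroid cells at -1.25 (SE 0.49). These values join both periods. In the late libraries alone the myocyte mean was 275 CPM, below fibroblasts (826), tendon (434) and MYF5+ cells (392). In the early libraries it was 457 in myocytes and 33.2 in fibroblasts. The neural progenitor call ended without E18-ZZ (adjusted p = 0.0620) and with 1 marker more in the gate (adjusted p = 0.232), the erythroid one without E16-DZ (adjusted p = 0.0563) or E21-DZ (adjusted p = 0.0804), and the macrophage one when cells of several gates were kept (adjusted p = 0.110). A mitochondrial limit of 5% ended the endothelial (adjusted p = 0.134) and myocyte (adjusted p = 0.0524) calls. Without the library block the epithelial value fell to 1.11 (adjusted p = 0.0981), and the macrophage (adjusted p = 0.210) and erythroid (adjusted p = 0.0507) calls ended too. No neighbouring pair in the order of types differed past the test, which does not show that the order is graded. IGFBP4 and IGFBP5 thus had opposite called directions in endothelial cells, epithelial cells and myocytes and a shared one in fibroblasts, neural progenitors and erythroid cells.

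Some type values passed only when libraries or settings were changed. Without E18-DZ the IGFBP5 value of neurons moved from -0.10 to -1.32 (adjusted p = 0.00676) and their IGFBP2 from -0.04 to -0.61 (adjusted p = 0.0319). Leaving out 1 library also brought past the test IGF1R in PAX3+ progenitors (without E21-DZ, 0.50) and fibroblasts (without E21-ZZ, -0.44, or E28-DZ, -0.42), and IGF2R in epithelial cells (without E16-ZZ, 0.64, or E28-ZZ, 0.52). The same held for IGFBP4 in tendon (without E18-DZ, 1.08, or E21-DZ, 1.28) and for IGFBP5 in MYF5+ cells (without E18-ZZ, 0.97, or E18-DZ, 0.92). IGFBP5 in lateral plate cells passed without any of E18-ZZ, E21-ZZ, E28-ZZ or E28-DZ, at -1.81 to -1.54, and with DESeq2 (-1.43, adjusted p = 0.0402). IGFBP4 in chondrogenic cells passed under 4 settings, among them at least 50 cells per sum (0.81, adjusted p = 0.0151).

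IGFBP2 and IGFBP5 are neighbours in the genome. In Sscrofa11.1, IGFBP2 lies on chromosome 15 from 118822092 to 118850985 on the plus strand and IGFBP5 from 118861816 to 118877787 on the minus strand, 10.83 kb apart and facing each other. They shared a called direction in epithelial, neural crest or glia, macrophage and erythroid cells and had opposite called directions in endothelial cells and neural progenitors. IGF1 lies on chromosome 5 from 81762027 to 81909253, IGF1R on chromosome 1 from 137383623 to 137691038, IGF2R on chromosome 1 from 7369485 to 7472480, and IGFBP4 on chromosome 12 from 21966524 to 21980043.

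**Figure D2:**
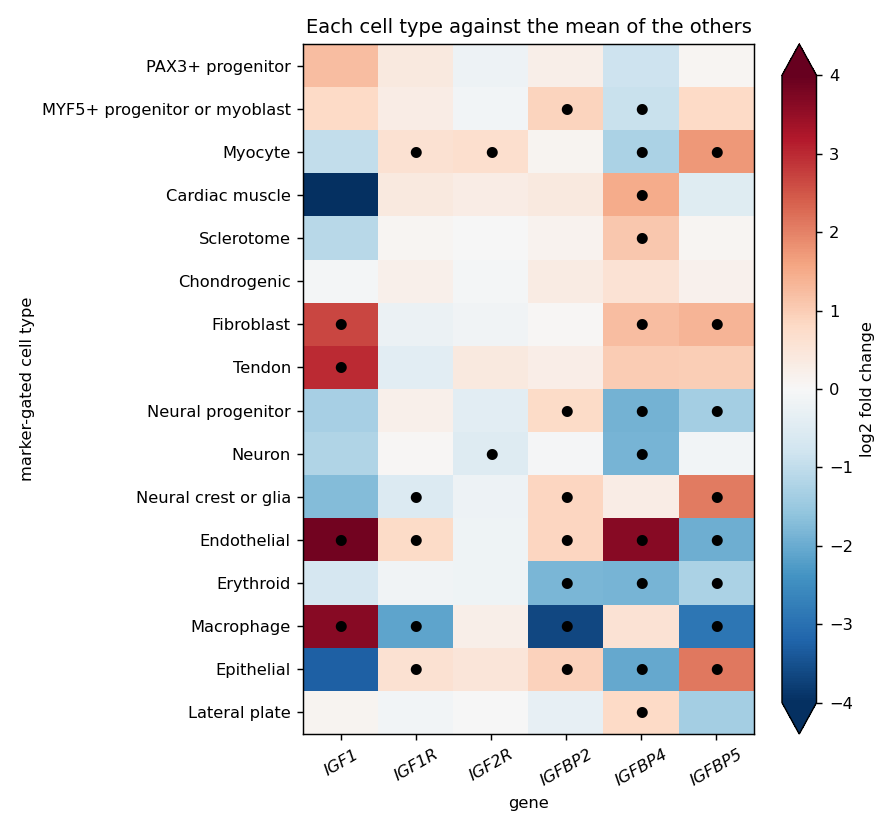
Log2 fold change of each gene (columns) in each marker-gated cell type (rows) against the mean of the other types, from red (higher) to blue (lower), with a dot where the adjusted p was under 0.05. IGF1 and IGFBP4 are darkest red in endothelial cells (3.87 and 3.63), and the IGF1 blues carry no dot, most of them having no usable SE in this fit.

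Within the myogenic lineage, the step from PAX3+ progenitors to MYF5+ progenitors or myoblasts changed none of the 6 genes past the test (edgeR), where 2.14% of 12268 genes passed. At an unadjusted p under 0.05 there was 1 of the 6, where 12.8% of all genes were. It was IGFBP2, at 0.61 (SE 0.27, edgeR adjusted p = 0.313), and DESeq2 called none. The step from MYF5+ cells to myocytes changed 2 of the 6, where 29.7% of genes passed.

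IGF2R was higher in myocytes than in MYF5+ cells by 0.74 (SE 0.23, edgeR adjusted p = 0.00845). In myocytes it was at 11.4, 28.1, 33.6, 22.6, 27.9 and 21.4 CPM from E18-ZZ to E28-DZ, and in MYF5+ cells at 18.5, 13.8, 18.6, 21.6, 17.0 and 18.8. Myocytes were the higher of the pair in every library but E18-ZZ. Without E21-ZZ, or with cells of over 15000 UMIs left out, the adjusted p was 0.0685 and 0.0501, which ended the call.

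IGFBP2 was lower in myocytes, at -0.73 (SE 0.29, edgeR adjusted p = 0.0458). MYF5+ cells held 672 and 500 CPM at E18, 1450 and 1414 at E21, then 1514 and 1342 at E28. Myocytes held 712 and 555 at E18, 638 and 637 at E21, then 430 and 443 at E28. The E18 sums of both types overlapped and the later sums lay far apart. The call was lost with DESeq2, without the library block and when any late library was left out, at adjusted p from 0.0551 to 0.154.

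IGFBP5 in myocytes was at 381 and 532 CPM at E18, 314 and 375 at E21, then 206 and 204 at E28. In MYF5+ cells it was at 88.0 and 96.0, then 472 and 454, then 309 and 333. Myocytes were the higher type at E18 and the lower one at E21 and E28, a change of order that was not tested, and the difference over all stages was 0.88 (SE 0.48, edgeR adjusted p = 0.177).

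IGF1 reached 14.8 and 20.03 CPM in MYF5+ cells at E21 and was at 0 to 2.70 in those of the other stages. Myocytes stayed at 0 to 3.57, and the difference between both types was -1.65 (SE 0.75, edgeR adjusted p = 0.0906). IGF1R was at 15.4 to 30.5 in MYF5+ cells and at 16.0 to 30.0 in myocytes, which overlap.

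**Figure D3:**
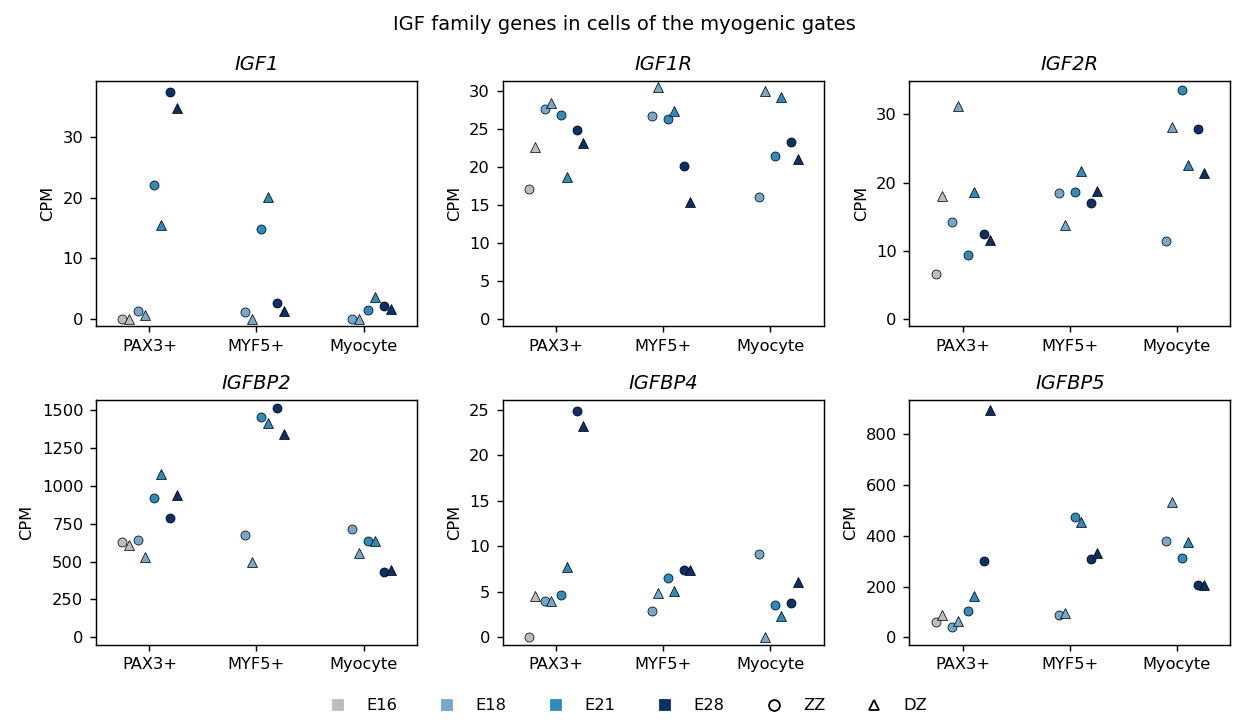
Level of each gene (y axis, CPM) in PAX3+ progenitors, MYF5+ progenitors or myoblasts and myocytes (x axis), each point being 1 library, coloured by stage, with circles for ZZ and triangles for DZ. IGFBP2 in MYF5+ cells at E21 and E28 (1342 to 1514) lies above every myocyte sum (430 to 712).

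The rise of IGF1 and IGFBP5 with stage was then followed inside the 5 types that had at least 3 early and 3 late libraries. Of the 24 gene and type pairs tested, 9 passed and all 9 were higher late, where 17.9% of all pairs over genes passed in either direction. The gates were the same at all stages, but whether they caught the same kind of cell early and late was not tested.

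Fibroblasts, gated on LUM, DCN and collagen genes, showed the most: 4 of 6 genes rose there, where 12.5% of 10086 genes passed. IGFBP5 was at 16.5 (E16-ZZ), 57.7 (E18-ZZ) and 25.4 (E18-DZ) CPM early, and at 636 (E21-ZZ), 749 (E21-DZ), 712 (E28-ZZ) and 1208 (E28-DZ) late, with no overlap. The log2 fold change was 4.35 (SE 0.41, edgeR adjusted p = 0.000848). E16-DZ had 14 gated fibroblasts and no sum, and E16-ZZ had 84, in the library with 39.2% of barcodes over the mitochondrial limit. In the same sums IGFBP7, outside the 6 genes, was at 2107, 1135 and 1748 CPM early and at 51.3 to 71.3 late. Whether the fibroblast gate held the same kind of cell early and late was not tested.

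IGF1 in fibroblasts was at 0, 1.62 and 1.02 CPM early, on 3 UMIs in all, and at 25.6, 31.4, 56.3 and 26.4 late, on 953 UMIs. The log2 fold change was 4.98 (SE 0.62, edgeR adjusted p = 0.00246), and the pooled late over early ratio was 39.8 with a 95% counting interval from 13.6 to 194. IGFBP2 rose by 1.17 (SE 0.21, edgeR adjusted p = 0.0101), from 236, 473 and 328 to 877, 831, 878 and 879 CPM. Without E18-DZ the IGFBP2 call was lost, at an adjusted p = 0.115.

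IGFBP4 in fibroblasts rose by 1.72 (SE 0.46, edgeR adjusted p = 0.0457), from 3.001, 10.6 and 10.2 to 20.6, 20.02, 35.5 and 51.2 CPM. Its groups did not overlap, but the call was lost under 6 of 18 alternatives, each of which left out libraries, at adjusted p from 0.0871 to 0.210. With no E16-DZ sum, leaving out E16-ZZ and leaving out E16 were the same fit, and leaving out E16-DZ repeated the main one. With a mitochondrial limit of 5% the rise of IGFBP4 was 2.66 (edgeR adjusted p = 0.0114). The receptors passed in neither direction, at 0.14 (SE 0.31) for IGF1R and -0.13 (SE 0.26) for IGF2R.

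In PAX3+ progenitors 2 of the 5 genes tested rose, where 10.5% of genes passed. IGF1 was at 0, 0, 1.33 and 0.567 CPM early and at 22.2 and 15.5 at E21 and 37.3 and 34.8 at E28, a log2 fold change of 4.82 (SE 0.66, edgeR adjusted p = 0.000165). Those are 4 early and 35 late UMIs, a pooled ratio of 32.0 (95% counting interval 11.4 to 124), and the E28 sums held 20 and 25 cells. IGFBP5 rose by 2.06 (SE 0.42, edgeR adjusted p = 0.00475), from 59.2, 88.2, 42.7 and 64.1 to 103, 161, 299 and 893, and E28-DZ was the highest by far. Without E28-DZ that rise was 1.32 (adjusted p = 0.0128) and without both E28 libraries 1.04 (adjusted p = 0.0189). IGFBP2 was at 0.57 (SE 0.18, edgeR adjusted p = 0.0504), just outside the threshold, and passed under 6 of 19 alternatives, among them DESeq2 (adjusted p = 0.0384), 1 marker more in the gate (0.97, adjusted p = 0.0169) and leaving out E28 (0.70, adjusted p = 0.0391). Asking for at least 50 cells per sum dropped the same E28 sums and was the same fit as leaving out E28.

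In neural crest or glia cells IGFBP5 was the 1 gene of 5 tested that passed, with 28.4% of genes passing. It was at 188, 183, 219 and 192 CPM early and at 859, 654, 1213 and 1282 late, with no overlap, and the log2 fold change was 2.24 (SE 0.19, edgeR adjusted p = 4.19e-06). IGFBP2 was at -0.34 (SE 0.18, edgeR adjusted p = 0.187) and IGFBP4 at 0.30 (SE 0.40, edgeR adjusted p = 0.606), which became 1.49 and passed with 1 marker more in the gate (adjusted p = 0.0138).

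In endothelial cells IGFBP2 and IGFBP5 rose, 2 of 6, with 27.2% of genes passing. IGFBP2 was at 583, 662, 850 and 777 CPM early and at 1315, 1195, 1628 and 1263 late, with no overlap, and rose by 0.81 (SE 0.14, edgeR adjusted p = 0.00231). IGFBP5 rose by 2.77 (SE 0.41, edgeR adjusted p = 0.00117), from 6.54, 18.4, 8.09 and 12.8 to 48.2, 36.8, 122 and 118. Erythroid IGFBP5 was at 2.62 to 22.2 CPM early, at 5.24 and 6.69 at E21 and at 40.5 and 105 at E28. By CPM the endothelial sums lay well above the erythroid ones at E21 and near them in E28-DZ. Globin made up 50.8% (ZZ) and 51.7% (DZ) of the erythroid UMIs at E28, which lowers the CPM of other genes there. Whether free RNA had a part in the endothelial rise was not tested. In erythroid cells 0 of the 2 genes tested passed (edgeR), where 2.39% of genes did, and the late over early effect of IGFBP5 was 2.23 (SE 0.80, edgeR adjusted p = 0.148). It passed without the low-count filter (1.97, adjusted p = 2.25e-05), with 1 marker more in the gate (2.42, adjusted p = 0.0345) and without E18-ZZ (3.11, adjusted p = 0.0358), and its difference from the endothelial effect was 0.90 (SE 0.86, edgeR adjusted p = 0.714).

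IGF1 went the other way in endothelial cells, at -0.90 (SE 0.34, edgeR adjusted p = 0.0748), a value that passed without the low-count filter (-0.96, adjusted p = 0.00275), without E16-ZZ (-1.16, adjusted p = 0.0290) and without E28-ZZ (-1.31, adjusted p = 0.0271). IGFBP4, though concentrated in these cells, was at 0.23 (SE 0.17, edgeR adjusted p = 0.356), and IGF1R at 0.50 (SE 0.19, edgeR adjusted p = 0.0732), which passed with 1 marker more in the gate (adjusted p = 0.0496) and with cells of several gates kept (adjusted p = 0.0314).

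The differences between types in the late over early effect were tested as interactions, a test added after the data were seen, and 7 of 60 passed, where 3.14% of all such tests over genes did. That fit held no library term, so sums of several types from the same library were treated as independent. The IGF1 effect was larger in fibroblasts than in endothelial cells by 5.86 (SE 0.72, edgeR adjusted p = 4.27e-07), where 7.46% of 10135 genes passed, and larger in PAX3+ progenitors than in endothelial cells by 5.80 (SE 0.74, edgeR adjusted p = 6.51e-06), where 2.98% passed. Another IGF1 difference that passed, neural crest or glia against endothelial cells (background 5.79%), rested on 1 early and 10 late UMIs in the former, where IGF1 had not passed the low-count filter, and is not read as a change in those cells. The IGFBP2 effect was larger in fibroblasts than in neural crest or glia by 1.51 (SE 0.32, edgeR adjusted p = 0.00148, background 7.75%) and than in erythroid cells by 1.48 (SE 0.37, edgeR adjusted p = 0.0287, background 1.38%), and smaller in neural crest or glia than in endothelial cells, at -1.18 (SE 0.30, edgeR adjusted p = 0.0135). The IGFBP4 effect was larger in fibroblasts than in endothelial cells by 1.45 (SE 0.46, edgeR adjusted p = 0.0471). None of the 10 IGFBP5 differences passed (edgeR), 4 of them with an unadjusted p under 0.05, where 14.1% of all such tests had one, and the nearest was fibroblasts against neural crest or glia at 2.06 (SE 0.70, edgeR adjusted p = 0.0649).

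**Figure D4:**
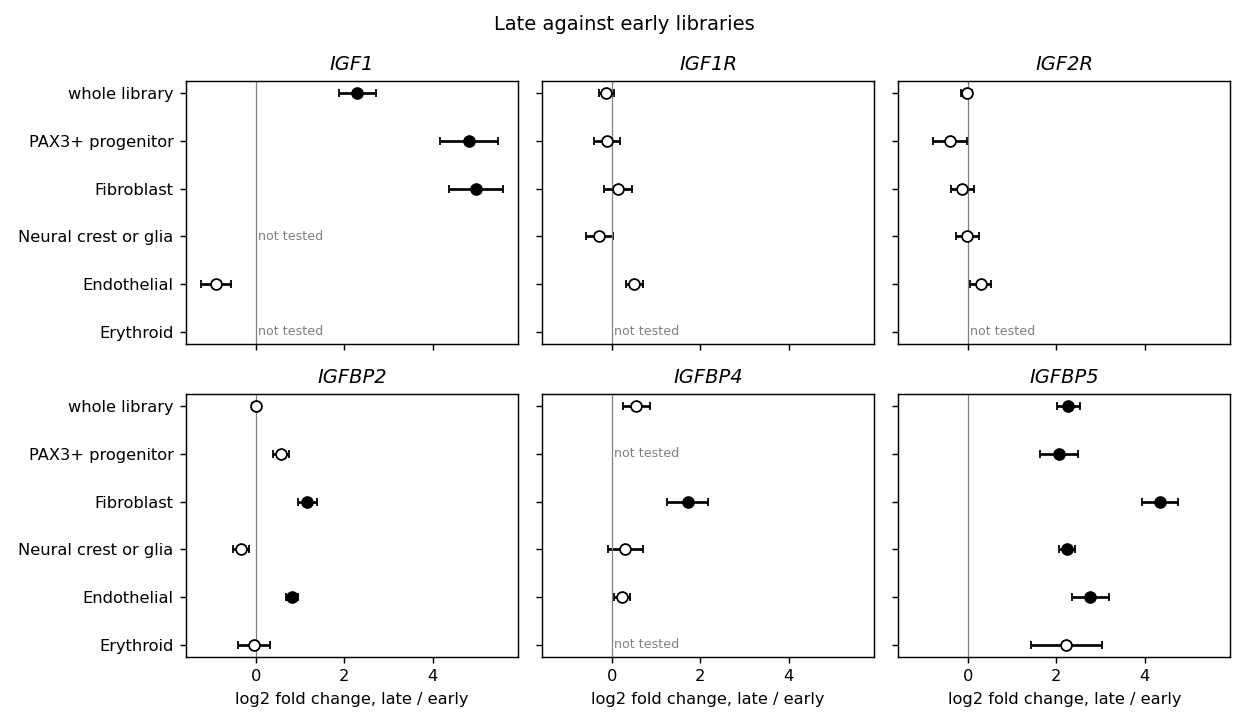
Late over early log2 fold change (x axis) of each gene in whole libraries and in 5 cell types (y axis); bars are 1 SE, and filled points had an adjusted p under 0.05. IGF1 is filled to the right in fibroblasts (4.98) and PAX3+ progenitors (4.82) and open to the left in endothelial cells (-0.90).

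**Figure D5:**
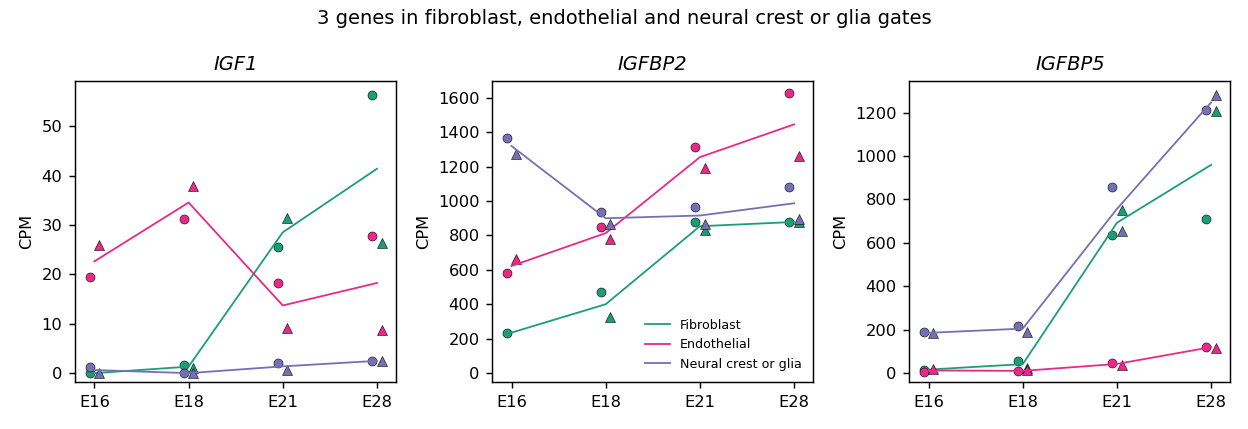
Level of IGF1, IGFBP2 and IGFBP5 (y axis, CPM) by stage (x axis) in fibroblasts, endothelial cells and neural crest or glia, with circles for ZZ, triangles for DZ and lines through the mean of the libraries of a stage. Fibroblast IGF1 lies below the endothelial level at E16 and E18 and its mean lies above it at E21 and E28.

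The share of each gene's UMIs that a type held was set beside that type's share of all UMIs. Endothelial cells held 73.5, 79.6, 45.5 and 73.4% of the IGF1 UMIs of the early libraries (9.31, 10.9, 3.89 and 5.14% of all UMIs), and 0.755 to 3.47% of those of the late libraries. Fibroblasts held 9.39, 17.1, 41.5 and 28.5% of late IGF1 UMIs, from E21-ZZ to E28-DZ, where they held 3.45, 6.75, 22.1 and 13.3% of all UMIs. At E28 the fibroblast gate took 2320 cells in ZZ and 1518 in DZ, and fibroblast IGF1 was at 56.3 and 26.4 CPM, beside whole-library levels of 30.0 and 12.4.

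Of IGFBP4, endothelial cells held 49.0, 59.0, 20.5 and 36.3% of the early UMIs and 4.44 to 11.0% of the late ones, with 1.02 to 1.80% of all late UMIs. For IGFBP5, epithelial cells held 39.2 and 39.8% of the UMIs at E16, where they held 14.6 and 13.5% of all UMIs. For IGFBP2, MYF5+ cells held 21.1 and 28.0% of the UMIs at E28, where they held 12.7 and 17.5% of all UMIs. Cells in no gate held 37.8 to 63.0% of all UMIs of a library, so these shares describe the gated cells alone.

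Neurons were outside the late and early test, since too few were gated at E16, but their IGFBP2 was at 1456 and 1363 CPM at E18, 440 and 407 at E21, then 176 and 177 at E28. Both breeds had the same order of stages, each lower than the stage before it. Their IGFBP5 gave the one call between breeds inside a type. It was at 137 in ZZ and 369 in DZ at E18, at 61.3 and 87.3 at E21, then at 58.6 and 155.1 at E28, a log2 fold change of 0.93 (SE 0.21, edgeR adjusted p = 0.00858), where 0.217% of 8303 genes passed. The ZZ sums at E18 and E28 held 36 and 32 neurons, and 5 of 12 alternatives kept the call. Among those 5, the fit without E16 only repeated the main one, because E16 had 4 and 6 neurons and no sum. The call ended without E18 (edgeR adjusted p = 0.840) and without E28 (edgeR adjusted p = 0.0804).

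In the other 9 types tested, no IGF family gene differed between breeds past the test (edgeR), and over all 10 types 0.128% of gene and type pairs passed. By an unadjusted p under 0.05 there were 4 of 44 pairs, where 6.23% of all gene and type pairs were, all 4 higher in DZ: IGFBP5 and IGF2R in PAX3+ progenitors, at 0.78 (SE 0.16, edgeR adjusted p = 0.0726) and 1.12 (SE 0.30, edgeR adjusted p = 0.349), IGFBP5 in sclerotome at 0.48 (SE 0.15, edgeR adjusted p = 0.407), and IGFBP4 in endothelial cells at 0.47 (SE 0.15, edgeR adjusted p = 0.532). DESeq2 called 0 in all 10 types. IGFBP5 in PAX3+ progenitors passed without the low-count filter (0.78, adjusted p = 0.00328) and with cells of several gates kept (0.84, adjusted p = 0.0121). IGFBP5 in MYF5+ cells and myocytes was at 0.07 (SE 0.12) and 0.26 (SE 0.16).

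Other genes of the pathway were read from a list of 39 (further binding proteins, IGFBP proteases and their inhibitors, insulin and its receptor, the adaptors, the PI3-kinase to mTOR branch, and the IGF2 mRNA-binding proteins), of which 36 were found. The rest are not analysed here. Late against early in whole libraries, 9 of 35 tested were higher and 8 lower, 48.6% of them against 35.1% of all genes. IGFBP6, which binds IGF2 by preference, rose by 2.38 (SE 0.38, edgeR adjusted p = 0.00441) and lay at 6.48 to 8.76 CPM early against 18.8 to 64.0 late. The IGFBP proteases parted, PAPPA2 being higher by 2.20 (SE 0.44, edgeR adjusted p = 0.00851) and PAPPA, which cleaves IGFBP4, at -1.37 (SE 0.46, edgeR adjusted p = 0.0491). PAPPA was at 3.95 to 6.07 CPM early and lowest at E21, at 1.35 (ZZ) and 0.788 (DZ). At E28 it was at 2.37 (ZZ) and 3.95 (DZ), the latter at the lower edge of the early range. The list genes were not recomputed under the alternatives. EIF4EBP1, a translation repressor under mTOR, was at -1.38 (SE 0.24), PIK3R3, a regulatory PI3-kinase subunit, at 1.37 (SE 0.27), and INS, on 0 to 87 UMIs per library, at -3.22 (SE 0.84). Between breeds 0 of 35 passed.

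Inside types, 4 of 30 list genes rose and 4 fell late in fibroblasts (26.7%, against 12.5% of all genes), 7 rose and 1 fell of 22 in neural crest or glia (36.4% against 28.4%), and 8 rose and 1 fell of 29 in endothelial cells (31.0% against 27.2%). In PAX3+ progenitors 2 rose and 1 fell of 22 (13.6% against 10.5%), and in erythroid cells 0 of 7 passed (edgeR), where 2.39% of all genes did. IGFBP7, a low-affinity binding protein of vessels and matrix, fell in fibroblasts by 4.99 (SE 0.28, edgeR adjusted p = 0.000129) on the log2 scale, from 2107, 1135 and 1748 to 71.3, 54.2, 51.3 and 66.3 CPM. It rose in neural crest or glia by 4.21 (SE 0.33, edgeR adjusted p = 2.96e-06) and in endothelial cells by 1.95 (SE 0.24, edgeR adjusted p = 0.000458). PIK3R3 rose in fibroblasts (1.68), neural crest or glia (1.05), endothelial cells (1.05) and PAX3+ progenitors (1.13), and the insulin receptor INSR rose in endothelial cells by 1.63 (SE 0.36, edgeR adjusted p = 0.00752). Among the larger changes called were rises of FOXO1 in neural crest or glia (3.51), IGFBP6 in fibroblasts (2.93) and STC2 in endothelial cells (2.89).

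From MYF5+ cells to myocytes 6 of 33 list genes rose and 2 fell, 24.2% against 29.7% of all genes, and from PAX3+ to MYF5+ cells 0 of 33 passed (edgeR), where 2.14% of all genes did. RPS6KB1, the S6 kinase under mTOR, rose by 1.40 (SE 0.16), GRB2, an adaptor to the RAS pathway, by 1.27 (SE 0.14), STC2, an inhibitor of PAPPA, by 1.45 (SE 0.55) and FOXO1, a transcription factor held out of the nucleus by AKT, by 0.83 (SE 0.28). STC1, a second such inhibitor, fell by 2.48 (SE 0.46), and the receptor substrate IRS2 by 0.66 (SE 0.25).

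The genes whose levels ran closest to each member were found by Pearson correlation of log2(CPM + 1) over the 94 sums, which share libraries and types, among 7307 genes. IGF1 ran closest to RGL1 (0.72), SRI (0.70) and FLI1 (0.69), the last an endothelial and blood transcription factor. IGF1R ran closest to SATB1 (0.77), PTDSS2 (0.75) and PARD3 (0.75), and IGF2R to ERLEC1 (0.72), TM9SF3 (0.70) and ZMYM2 (0.70). IGFBP2 had the highest values, with TSPAN6 (0.87), AMOTL1 (0.87) and ASAP2 (0.86). IGFBP4 ran closest to RHOC (0.76), TGFBR2 (0.76) and PLOD3 (0.76), and IGFBP5 to SERINC2 (0.74), SESN3 (0.73) and FBN3 (0.72).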

How the data were processed

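The authors made UMI counts per gene and cell from 10x 3′ reads with Cell Ranger (3.1.0 for E16, 3.0.2 for the others, per the file headers) on Sscrofa11.1 and deposited them as 1 matrix per library. Barcodes with at least 200 genes, at most 30000 UMIs and at most 10% mitochondrial UMIs were kept. Cells were put into types by the number of marker genes detected, with the minimum set after the marker counts were seen and without the IGF family genes. The deposited counts were summed per library, and per type and library where at least 20 cells were present. Sums were tested on the counts as deposited with edgeR 4.0.16 (quasi-likelihood, TMM scaling, low-count filter; R 4.3.3), over all genes, with Benjamini-Hochberg adjustment at 0.05. Late against early carried the breed as a term, DZ against ZZ the stage as a block, and types the library as a block. The interaction tests carried the breed and no library term. SE is the log2 fold change over the square root of F. The fit was also run on simulated counts with known changes, and the outcome is not reported here. Alternatives were DESeq2 1.42.0, no low-count filter, other cell limits (5% mitochondrial, 1000 or 15000 UMIs, 50 cells), a stricter gate, and libraries or stages left out. The members, the pathway list and the tests were chosen with earlier results of these data known. The named genes are all members and the 3 nearest patterns per member. List genes were named from the 6 largest called changes per comparison, not always all 6. Gene symbols missing from the deposited tables were taken from a RefSeq table by Ensembl identifier, for 687 of 6455 unnamed genes, and positions are from RefSeq. Counting intervals cover counting error only. Replicates have no labels beyond breed and stage.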

Additional observations from a re-analysis of the deposited data

Results flagged for a closer look

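A few libraries stood far from the others of their group of 4. By this measure chance marks about 1 in 20 groups, and 10 of 126 groups were marked. A group with UMIs in only 1 library is always marked, so that rate does not hold for such groups. IGF1 in whole late libraries was at 30.0 CPM in E28-ZZ, far above the other late libraries, and in late neurons it was at 14.6 in E28-ZZ, a sum of 32 neurons. In early neural crest or glia, IGF1 was at 1.26 in E16-ZZ, on 1 UMI, and in early epithelial cells at 0.225 in E16-DZ, on 2 UMIs, both beside values of 0. IGF1R in late chondrogenic cells was at 27.2 in E21-DZ, above the others. IGFBP2 in late fibroblasts was at 831 in E21-DZ, below the others. IGFBP4 was at 0 in PAX3+ progenitors of E16-ZZ, below the other early libraries. It was above the others at 5.94 in neural progenitors of E16-ZZ, at 1.34 in erythroid cells of E21-DZ, on 1 UMI, and at 9.08 in epithelial cells of E18-DZ, a sum of 53 cells.

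The late over early effect differed between cell types in 7 of 60 interaction tests (edgeR, adjusted p under 0.05), tests chosen after seeing the data, where 3.14% of all such tests over genes passed. The fit held no library term and treated sums of the same library as independent. For IGF1 the difference of log2 fold changes was 5.86 between fibroblasts and endothelial cells, 5.80 between PAX3+ progenitors and endothelial cells, and 3.87 between neural crest or glia and endothelial cells. The last rested on 1 early and 10 late UMIs in neural crest or glia, where IGF1 did not pass the low-count filter and lay close to the erythroid level, and is not read as a change in those cells. For IGFBP2 it was 1.51 between fibroblasts and neural crest or glia, 1.48 between fibroblasts and erythroid cells, and -1.18 between neural crest or glia and endothelial cells. For IGFBP4 it was 1.45 between fibroblasts and endothelial cells.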

How the results depend on the processing

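Of 2977 member values recomputed under the alternatives, 2867 stayed on their side of the threshold, 51 moved past it and 59 fell back. Some alternatives repeated another fit, where the sums left out were the same or were not in the fit. The sign changed in 205, called in neither fit, and in 0 of those called in either. The stage as 4 levels gives counts only. In whole libraries, late against early called 2 of the 6 genes with each library left out in turn and 1 without the E16 libraries. It called 3 with a mitochondrial limit of 5% and 3 with the stage as 4 levels. Over all genes that comparison called 5205, 2797 without E28, 1484 without E16, 7867 with the stage as 4 levels, and 3135 to 4842 with 1 library left out. Between breeds 0 of the 6 were called throughout. Over all genes it was 1 in the main fit, 63 with DESeq2, 0 with a mitochondrial limit of 5% (851 at an unadjusted p under 0.05), 0 without the stage block and 0 with any stage left out. The type comparison called 37 of the 96 pairs, 26 with a mitochondrial limit of 5%, and 32 to 40 with 1 library left out, and over all genes 51515, or 34540 with that limit. The myogenic steps called 2 pairs, 1 with DESeq2, 1 with at most 15000 UMIs per cell, 1 without the library block, and 0 to 2 with 1 library left out. Over all genes they called 3903, or 2415 without the library block. Within types, late against early called 9 pairs, or 7 to 9 with 1 library left out. Over all genes it called 7102, 2413 with a mitochondrial limit of 5%, 3699 without E28 and 3644 without E16. Between breeds within types the 1 call became 0 with DESeq2, 2 without the low-count filter, 0 with a mitochondrial limit of 5%, 0 with 1 marker more, 0 without the stage block, and 0 to 1 with a stage left out. With at least 50 cells per sum it was 0 because neurons could not be tested. ZZ had 36 neurons at E18 and 32 at E28, so only E21 kept both breeds. Over all genes the breed tests within types called 114, 60 with DESeq2, 790 without the filter, 1 without the stage block, and up to 353 with a stage left out. Fewer libraries were fitted where libraries or stages were left out, and fewer sums with at least 50 cells. Otherwise the cause was not tested. No paired analysis was possible by replicate number, because each stage and breed had 1 library and the labels give no such numbers. Breeds were paired by stage and types by library, but the interaction tests were not paired by library. Of depth, the 0 IGF1 UMIs in cardiac muscle cells still allow a level of up to 1.29 CPM.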
